A study of Mus musculus with 14 samples.

Results

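Cytosolic ribosomal protein genes encode the proteins that, with ribosomal RNA, make up the large and small subunits of the ribosome of the cytoplasm. They were chosen by name from the deposited gene table: protein-coding genes whose symbol is Rpl or Rps followed by a digit, with Rpsa and with Rplp0, Rplp1 and Rplp2. Ribosomal S6 kinases, Rps19bp1 and Rpl7l1 were left out, which removed 12 names that fit the pattern but encode other proteins. This gave 92 of the 54532 genes in the table, of which 55 encode large subunit proteins, 34 small subunit proteins and 3 the stalk of the large subunit. Symbols ending in -ps and a digit, a form used for pseudogenes, are borne by 8 of the 92, although the table lists them as protein coding.

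RNA was sequenced from skeletal muscle of male FVB/N mice that carry a human c-Myc transgene under a tetracycline-responsive promoter, a transgene located on the Y chromosome. In overexpression mice (OE) a tTA transactivator driven by the endothelial Cdh5 promoter switches the transgene on when doxycycline is withdrawn, which was done at 4 to 6 weeks of age. Control mice (CT) are littermates with the transgene and without the transactivator, and mice of both genotypes then had 20 weeks of control diet (CTD, TD.08485) or a high-fat western diet (WD, TD.88137). The study asks how c-Myc in endothelial cells bears on obesity.

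By the labels, 3 libraries are CT-CTD, 3 are CT-WD, 4 are OE-CTD and 4 are OE-WD. The driver acts in endothelial cells, while the RNA came from whole muscle, so the mRNA measured here comes from all cell types of the muscle together. The paper names soleus and gastrocnemius as the muscles, and the labels do not say which of them a library came from. The paper's text also gives another diet duration for the transcriptome, and group sizes in a legend that differ from the labels. The labels were used throughout. The labels do not state that each library is a separate animal. In the sample names, all 4 OE-WD libraries hold the same number after differing letters, OE-CTD 1 to 3 share another, and OE-CTD 4 and each of the 6 CT libraries have a number of their own. What the number marks, an animal, a cage or a litter, is not stated, and with a single number in OE-WD its part cannot be told apart from that of the group.

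If the number marks an animal, the OE libraries are repeated measures and the p-values below for OE are too small. A chi-square statistic between libraries, over its degrees of freedom, was 7.50 to 10.2 among OE-CTD 1 to 3 and 35.6 to 41.2 between these and OE-CTD 4. In OE-WD, where all share the number, it was 8.17 to 14.5 among libraries 1 to 3 and 37.2 to 40.4 between these and library 4, and in CT, with separate numbers, it was 16.1 to 48.1. So each pair among OE-CTD 1 to 3 and among OE-WD 1 to 3 was closer than any pair within a CT group. OE-WD 4 was far from the libraries that share its number. What the number marks was not tested. Each library is taken as a replicate below, and results with libraries of the same number summed are given beside the calls.

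The libraries held between 21833839 and 28519159 counts. Muscle markers dominated: all 14 of the listed skeletal muscle genes were detected, and Acta1, the skeletal actin gene, had a mean of 30570.0 FPKM (range 26370.0 to 38070.0). FPKM, fragments scaled for gene length and library size, is used below to compare levels between genes. The library size implied by the deposited FPKM was not the summed counts but 79.93% (OE-CTD 4) to 97.97% (OE-WD 3) of them. CPM, counts scaled by library with TMM factors and not by length, is used to compare one gene between libraries. Other cell types were present at lower levels, with Eng as the most abundant of 12 endothelial markers at 25.5 FPKM, Dcn of 6 fibroblast markers at 49.3, Lyz2 of 9 macrophage markers at 23.3, Cfd of 6 adipocyte markers at 39.2 and Hba-a1 of 5 blood markers at 185. Lymphocyte markers were near 0, the most abundant of 6 being Ptprc at 0.0864 FPKM, and Krt5, the most abundant of 6 epidermal markers, ranged from 0 to 15.2.

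As background, each ribosome holds a single copy of nearly every ribosomal protein, and cells keep the production of these proteins in balance with each other and with ribosomal RNA. Their mRNAs begin with a short run of pyrimidines, the terminal oligopyrimidine tract, through which mTOR and its target Larp1 control their translation, and Myc is known as an activator of ribosome production. Skeletal muscle is known for Rpl3l, a paralog of Rpl3 that takes its place in muscle ribosomes.

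The ribosomal protein genes took between 1.003% (OE-WD 4) and 1.32% (CT-WD 3) of a library's counts. Of the 92 genes, 84 passed the filter on low counts and were tested. The other 8 had few or no reads: Rpl10l, Rpl13a-ps1, Rpl36-ps4 and Rpl9-ps1 had none in any library, and Rpl36a-ps1, Rpl36al, Rpl29 and Rpl39l had 77, 55, 48 and 2 counts in all 14 libraries together. The median tested gene had a mean level of 75.2 FPKM, with a range from 0.337 to 783.

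The stalk proteins recruit elongation factors to the ribosome. Rplp1 had the highest level per length of all, 783 ± 83.9 FPKM (mean ± SD, n = 14), followed by Rplp0, the scaffold of the stalk, at 419 ± 51.9. Rplp2, their partner, named here after its value was seen, was much lower, at 89.0 ± 10.4 FPKM. Next came Rpl36 of the large subunit at 370.2 ± 49.99, then Rps15 at 353 ± 41.9 and Rps3a1 at 345 ± 37.8 of the small subunit. Rpl36, Rps15 and Rps3a1 did not differ from each other beyond their spread over the 14 libraries, while Rplp1 stood clear of all others. By CPM, which does not divide by length, Rplp1, Rplp0, Rpl36, Rps15 and Rps3a1 held ranks 5, 1, 38, 19 and 7, so these places depend on the scale. Rplp2 was below Rplp1 by CPM too, but by less, with group means from 151.6 to 184.3 against a mean of 357.5 for Rplp1. The lowest tested genes were Rps10 at 0.337 ± 0.141 FPKM, Rpl24 at 0.361 ± 0.150 and Rpl10-ps3 at 0.379 ± 0.175, which lay within each other's spread. Since every ribosome contains Rps10 and Rpl24 proteins, these low values were compared with those of the genes' near-identical copies, described next.

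**Figure D1:**
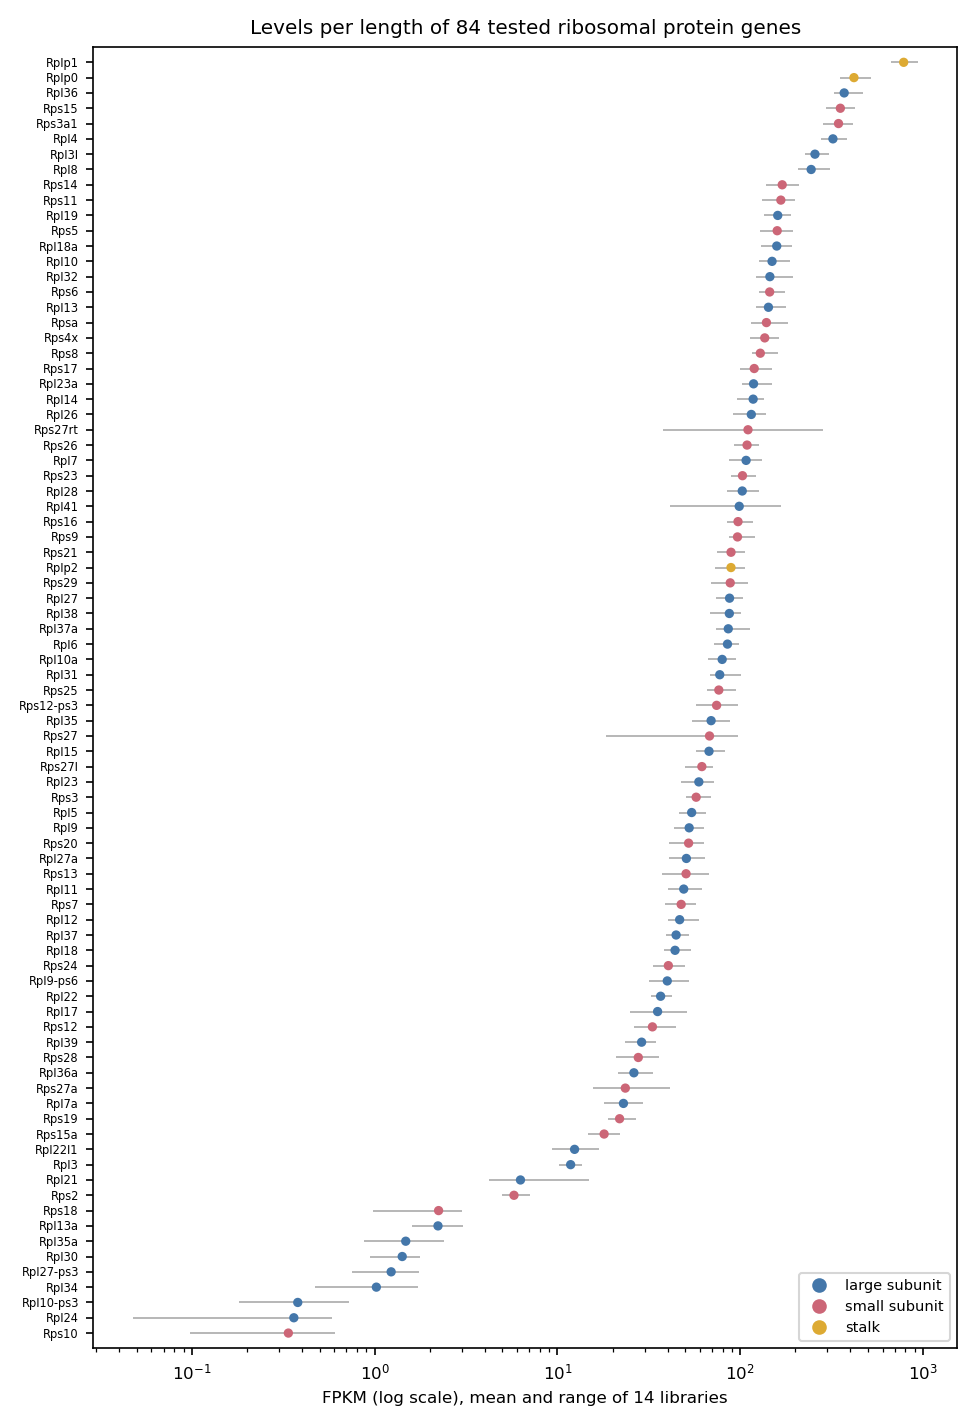
Mean FPKM (points, log axis) and range over 14 libraries (bars) of the 84 tested ribosomal protein genes, coloured by subunit. Rplp1 is highest at 783 FPKM, and Rps10, at 0.337, Rpl24, at 0.361, and Rpl10-ps3, at 0.379, are lowest.

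Ribosomal protein genes have left many processed copies in the genome, and a read that fits several places equally well is assigned by a rule that the sources used here do not give. Annotated genes with at least 95% identity over at least 80% of the coding sequence were counted as copies. There were 550 of them, 384 with reads, and 78 of the 84 tested genes had at least 1. The median tested gene shared 44.8% of its 50-base windows with another annotated gene, so levels of single genes in these families are uncertain. In 11 of 76 families with copies, the most abundant copy had more reads than the gene itself. The processed pseudogene Rps10-ps2 (chr16:20822145-20822640) had a mean of 42.0 CPM where Rps10 (chr17:27630418-27636669) had 0.714. Rpl34-ps1 (chr6:71124610-71124963) had 101 CPM against 2.47 for Rpl34, and Gm12191 had 80.8 against 3.91 for Rpl30. For Rpl24 the copy Gm9385 had 2.20 CPM against 0.340, so the gene and its annotated copies together stayed low, with a family sum between 2.23 and 3.82 CPM. Rpl24 also overlaps Gm28037 on the same strand over 47.0% of its exonic bases, Rps10 overlaps RPS10-NUDT3 over 20.6%, and Rpl13a overlaps Gm45713 over 29.4%. How reads in such overlaps were assigned is not stated either.

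Paralogs were compared by their mRNA levels, and which form the ribosomes held was not measured. Rpl3l (chr17:24727820-24736143) had 249, 256 and 236 FPKM (CT-CTD), 239, 306 and 281 (CT-WD), 258, 243, 255 and 294 (OE-CTD) and 237, 227, 229 and 274 (OE-WD). Rpl3, the form of most tissues, had a mean of 11.8 ± 1.09 FPKM (n = 14), and the ratio of Rpl3l to Rpl3 was 21.7, from 17.9 to 29.2 in single libraries. By CPM, which does not divide by length, Rpl3l had group means from 362.3 to 414.6 and Rpl3 a mean of 34.29. With copies added, Rpl3 had group means from 53.51 to 58.97 CPM. The ratio was thus smaller by CPM, with the same direction. Rpl3l was above Rpl3 in each of the 14 libraries, and its groups overlapped. Rpl3l has no annotated copy. Rpl3 shares 85.6% of its windows with other genes and held 60.8% of the CPM of its family, so its own level is the less certain. By their means, the other paralogs were at or below their partner: Rpl22l1 at 12.4 ± 2.24 FPKM against 36.7 ± 3.31 for Rpl22, and Rps27l at 61.6 ± 6.18 against 67.9 ± 24.3 for Rps27. Rpl7l1, outside the rule, had 9.06 ± 0.822 FPKM against 108 ± 13.6 for Rpl7. Rpl36al had 0.130 FPKM against 26.2 for Rpl36a, Rpl39l had 0.00845 against 28.9 for Rpl39, and Rpl10l had no read where Rpl10 had 149. Rpl36al overlaps Gm49383 on the same strand over 24.5% of its exonic bases, so its low value is uncertain. Rps27 and Rps27l lay within each other's spread, with a ratio of Rps27l to Rps27 from 0.644 to 3.361 in single libraries. Rps27 held 63.15% of the CPM of its family, so its own level is uncertain too. Rpl22l1 stayed below Rpl22 in each library.

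The 4 genes on the X chromosome were ordered Rpl10 (149 ± 18.7 FPKM), Rps4x (136 ± 15.2), Rpl39 (28.9 ± 3.25) and Rpl36a (26.2 ± 3.10), where Rpl10 and Rps4x, and likewise Rpl39 and Rpl36a, did not differ beyond their spread. The name rule misses ribosomal proteins whose genes bear other names. Fau, a fusion of a ubiquitin-like protein with a small subunit protein, had 152 ± 17.0 FPKM, and Rack1, a scaffold on the small subunit, had 64.1 ± 7.97. Rps27a, the fusion of ubiquitin with a small subunit protein, had 23.5 ± 8.06 FPKM.

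Some libraries stood apart from their groups before any comparison. Taking each gene's log2 CPM minus its mean of all 14, the median of the tested ribosomal protein genes was 0.11, 0.05 and 0.04 (CT-CTD), -0.01, 0.24 and 0.26 (CT-WD), 0.02, -0.08, -0.08 and 0.07 (OE-CTD) and -0.12, -0.23, -0.15 and -0.09 (OE-WD). CT-WD 1 was the low library of its group, with 33 of the 84 genes above their mean over libraries, where CT-WD 2 and 3 had 78 and 76. All 4 OE-WD libraries were low, with 9, 5, 7 and 23 genes above the mean. The 6 fibroblast markers summed to 553, 484 and 397 CPM (CT-CTD), 1339, 411 and 403 (CT-WD), 1216, 1447, 1312 and 811 (OE-CTD) and 917, 2243, 1230.0 and 972 (OE-WD). CT-WD 1 resembled the OE libraries in these markers, and the same library was highest of the CT libraries for the 9 macrophage markers (139 CPM against 46.6 to 86.8 in the others) and the 6 epidermal markers (92.5 against 4.98 to 38.5). OE-CTD 4 and OE-WD 4 had the highest shares of mitochondrial counts, 14.9% and 14.5%, against 9.66% to 12.8% in the others. The part of these features in the results below was not tested, and in bulk tissue fewer cells of a type and less RNA per cell cannot be told apart.

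CT-WD against CT-CTD asks what the western diet does in muscle of mice without c-Myc induction. Most ribosomal protein genes were slightly higher on the western diet: 75 of 84 had a positive log2 fold change, with a median of 0.10 beside 0.01 over all 15458 genes tested. By subunit the medians were 0.13 for the stalk, 0.10 for the large and 0.11 for the small subunit. None passed the test. By edgeR's quasi-likelihood test with Benjamini-Hochberg adjustment, 0 of 84 had an adjusted p under 0.05, as did 0% of all genes tested. DESeq2 and limma also called 0 ribosomal protein genes, where DESeq2 called 29 of 27899 genes (0.104%) and limma 0 of 15458. At an unadjusted p under 0.05, 4 were higher (4.19% of all genes tested) and 1 lower (3.09%), together 5 (7.28%). Leaving out single libraries gave 1 (without CT-CTD 3, 941 of all 15867 genes tested) to 28 (without CT-WD 1, 1913 of 15828). There were 2 without each of CT-CTD 2, CT-WD 2 and CT-WD 3 (797 of 15876, 1174 of 15893 and 806 of 15875). In 2 genes, Rpl41 and Rpl10-ps3, every CT-WD library lay below every CT-CTD library (5.16% of all genes tested), and 0 genes had the opposite separation (4.47%). The median was 0.19 without CT-WD 1, 0.07 without CT-WD 2 and 0.06 without CT-WD 3, with 0 called in each case.

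Rpl41 (ENSMUSG00000093674, chr10:128548114-128549305, minus strand), which encodes the smallest ribosomal protein, at the interface of the subunits, had 179, 142 and 154 CPM (CT-CTD), 50.9, 66 and 73.0 (CT-WD), 121, 128, 131 and 129.9 (OE-CTD) and 144, 44.8, 44.4 and 69.6 (OE-WD). All 3 CT-WD libraries lay far below the 3 CT-CTD libraries, the OE-CTD libraries lay close together between them, and OE-WD 1 was as high as CT-CTD while the other OE-WD libraries were as low as CT-WD. The log2 fold change for CT-WD against CT-CTD was -1.32 (SE 0.32), lower in 3 of 3 libraries, with an edgeR adjusted p of 0.394. For OE-WD against OE-CTD it was -0.76 (SE 0.28, adjusted p 1). Rpl41 passed in CT with no filter on low counts (adjusted p 0.000445), with libraries of the same number summed (0.0476) or without OE-WD 1 (0.0196), and in OE without OE-WD 1 (-1.27, 0.00917). Over all alternatives the adjusted p ran from 0.000445 to 0.967 in CT and from 0.00917 to 1 in OE. Gm10076 (chr14:105681828-105682211), annotated as a long noncoding RNA and nearly identical to the Rpl41 coding sequence, had 10.4, 25.4 and 8.02 CPM (CT-CTD), 73.7, 80.8 and 75.8 (CT-WD), 40.9, 27.0, 24.8 and 31.0 (OE-CTD) and 14.2, 65.4, 66.7 and 47.6 (OE-WD). It was at most 40.9 CPM in the 8 libraries where Rpl41 was highest, OE-WD 1 among them, and at least 47.6 in the 6 where Rpl41 was lowest. Gm10076 had a log2 fold change of 2.40 (SE 0.46) in CT-WD against CT-CTD, with an edgeR adjusted p of 0.277. Summed over Rpl41 and its copies, the family had 190.1, 168 and 162 CPM (CT-CTD), 127, 149.5 and 152 (CT-WD), 163, 156, 157 and 162 (OE-CTD) and 158, 112, 113 and 119 (OE-WD). The coefficient of variation over the 14 libraries was 43.0% for Rpl41 and 15.4% for the sum, and the sum's log2 fold changes were -0.28 in CT and -0.34 in OE (adjusted p 0.646 and 1). How reads were shared out between Rpl41 and Gm10076 cannot be read from the counts, so most of the difference in Rpl41 alone is uncertain.

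Rpl21 had the largest positive value, 0.70 (SE 0.27, adjusted p 0.595), from 18.4, 26.8 and 13.1 CPM (CT-CTD) and 31.4, 46.0 and 17.3 (CT-WD). The groups overlapped, with CT-WD 2 highest and CT-CTD 3 lowest. The value was 0.33 without CT-WD 2 and 0.17 with copies added (adjusted p 0.725). An edgeR fit with the labels' replicate numbers as blocks gave Rpl21 0.66 with an adjusted p of 0.0458 in this comparison. Rpl21 was the single ribosomal protein gene among 13 genes called by that fit. That these numbers mark pairs was not shown. The adjusted p of Rpl21 over all alternatives ran from 0.0458 to 0.984. Rps27rt, a retrogene of Rps27, had 0.36 (SE 0.58), which became -0.54 without CT-WD 2, and Rpl30 had 0.25 (SE 0.24), or 0.075 without CT-CTD 2. On the low side Rpl10-ps3 had -1.07 (SE 0.55) and Rpl24 -0.75 (SE 0.65), both from levels under 1 CPM. Rpl24 was at -0.28 without CT-WD 3 and at 0.04 with copies added. None of these 4 passed in edgeR, with adjusted p between 0.739 and 0.952.

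OE-WD against OE-CTD asks the same of the diet in mice with c-Myc induced. Here the shift had the other sign: 77 of 84 genes were lower on the western diet, with a median of -0.13 beside 0.01 over all genes tested, and medians of -0.14, -0.13 and -0.13 for stalk, large and small subunit. By edgeR 0 of 84 passed (0.00647% of all genes tested, 1 gene), and DESeq2 and limma also called 0 ribosomal protein genes, with 1 of all genes in each. At an unadjusted p under 0.05, 9 were lower (2.27%) and 0 higher (1.93%), against 4.2% of all genes tested in either direction. This count, with blocks of replicate numbers that are not known to mark pairs, was 27 (1336 of all 15458 genes tested). With only the groups compared it was 20 (862 of 14653). It was 4 without OE-WD 2 (543 of 15362) and 24 without CT-WD 1 (855 of 15828). Summing libraries of the same number leaves a single sample in OE-WD, so that fit cannot show how far this count holds. Every OE-WD library lay below every OE-CTD library in 20 of 84 genes (2.23%), and above in 0 (1.84%).

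Rps27a (ENSMUSG00000020460, chr11:29545846-29548109, minus strand), the ubiquitin fusion, had 40.3, 39.5 and 55.5 CPM (CT-CTD), 35.4, 40.4 and 38.3 (CT-WD), 39.9, 74.9, 36.0 and 70.7 (OE-CTD) and 33.9, 29.9, 31.6 and 27.6 (OE-WD). OE-CTD 2 and 4 were far above all others, OE-CTD 1 and 3 were at the level of the CT libraries, and each OE-WD library lay below each OE-CTD library. Its log2 fold change of -0.85 (SE 0.20) was the most negative of the comparison, with an unadjusted p of 0.000656 and an adjusted p of 1 in edgeR. With no filter on low counts the adjusted p was 0.00558. Over all alternatives it ran from 0.00558 to 1. With its copies added the value was -0.72 (adjusted p 0.991), and Rps27a held 88.5% of the family's CPM. In CT-WD against CT-CTD the value was -0.25 (SE 0.23), or -0.07 without CT-CTD 3.

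Rps27, a small subunit protein, had 88.0, 71.7 and 53.4 CPM (CT-CTD), 85.9, 26.4 and 92.2 (CT-WD), 77.2, 55.2, 17.6 and 83.6 (OE-CTD) and 82.2, 70.0, 59.1 and 44.3 (OE-WD). Rps27rt (chr9:114982366-114982739) had 37.2, 32.8 and 45.9 CPM (CT-CTD), 25.6, 96.7 and 27.5 (CT-WD), 19.7, 46.8, 80.5 and 12.7 (OE-CTD) and 18.8, 14.6, 34.5 and 35 (OE-WD). The genes mirrored each other: Rps27 was lowest in OE-CTD 3 and CT-WD 2, where Rps27rt was highest. Rps27 shares 98.6% of its windows with other genes, and its coefficient of variation was 35.8% alone and 13.2% as a family sum. The log2 fold changes in OE-WD against OE-CTD were 0.13 (SE 0.40) for Rps27 and -0.64 (SE 0.51) for Rps27rt, where Rps27rt was at -0.05 without OE-CTD 3. For Rps27 the sign depended on single libraries, with -0.17 without OE-CTD 3 and -0.01 without OE-WD 1, and the family sum had -0.13. Rpl34, with 0.34 (SE 0.29), and Rpl13a, with 0.09 (SE 0.18), were the other genes at the high end. Leaving out single libraries gave 0.16 (without OE-WD 4) to 0.63 (without OE-CTD 1) for Rpl34 and 0.02 (without OE-CTD 4) to 0.20 (without OE-WD 1) for Rpl13a. With copies added, Rpl34 was at -0.13. In edgeR the adjusted p was 1 for each of these genes.

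**Figure D2:**
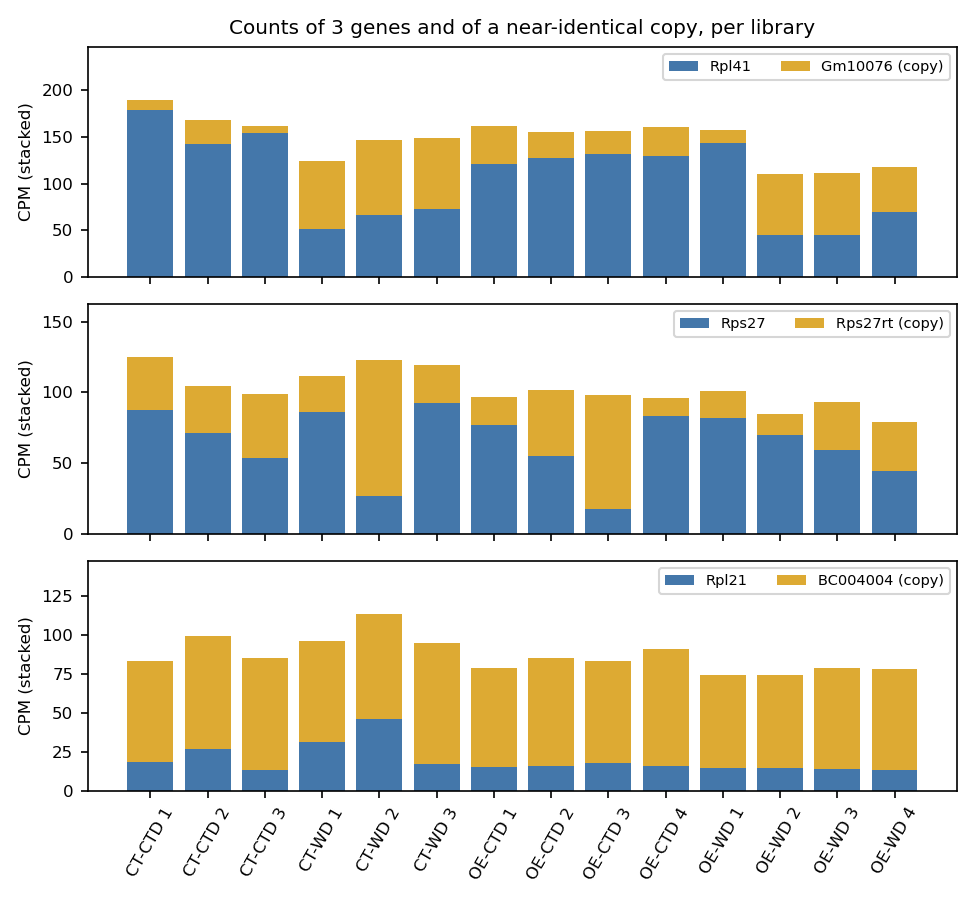
CPM in each of 14 libraries, stacked, of Rpl41, Rps27 and Rpl21 and of 1 near-identical copy of each. The parts of Rpl41 and Rps27 vary far more than their sums with the copy, with coefficients of variation of 43.0% and 35.8% for the genes alone.

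OE-WD against CT-WD asks what c-Myc induction does on the western diet, and it held the clearest difference among these genes. Lower in OE were 80 of 84, with a median of -0.31 beside 0.01 over all genes tested, and the shift was alike in the stalk (-0.28), the large (-0.31) and the small subunit (-0.31). By edgeR's quasi-likelihood test with Benjamini-Hochberg adjustment, 6 of 84 had fallen at an adjusted p under 0.05 (0.395% of all genes tested) and 0 had risen (0.33%), with 0.725% of all genes called in either direction. With the labels' replicate numbers as blocks, edgeR called 0 of 84, with 67 at an unadjusted p under 0.05 (2063 of all 15458 genes tested). These blocks join CT-WD and OE-WD libraries, whose residuals correlated at -0.23, -0.158 and -0.065. The labels name no such pairs, so the blocked fit cannot show how far the calls hold. Summing libraries by the number in their sample names leaves a single sample in OE-WD, and that fit is given below. With each library as a replicate, 65 of 84 were lower (8.42%) and 0 higher (8.44%) at an unadjusted p under 0.05, or 65 in either direction (16.9%). In 38 every OE-WD library lay below every CT-WD library (5.54%), with 0 the other way (6.06%). The middle of the list was narrow, with quartiles at -0.36 and -0.27. The 4 genes with positive values were Rpl24 (0.54), Rpl10-ps3 (0.28), Rpl41 (0.26) and Rps18 (0.11), of which Rps18 was singled out after its value was seen. None passed. Leaving out single libraries gave 0.07 (without CT-WD 3) to 0.895 (without OE-WD 2) for Rpl24 and 0.12 (without CT-WD 2) to 0.47 (without OE-WD 3) for Rpl10-ps3, which was not tested without OE-WD 2. With copies added to their gene, 81 of 81 families were lower, Rpl24 at -0.24, Rpl41 at -0.19 and Rps18 at -0.32.

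**Figure D3:**
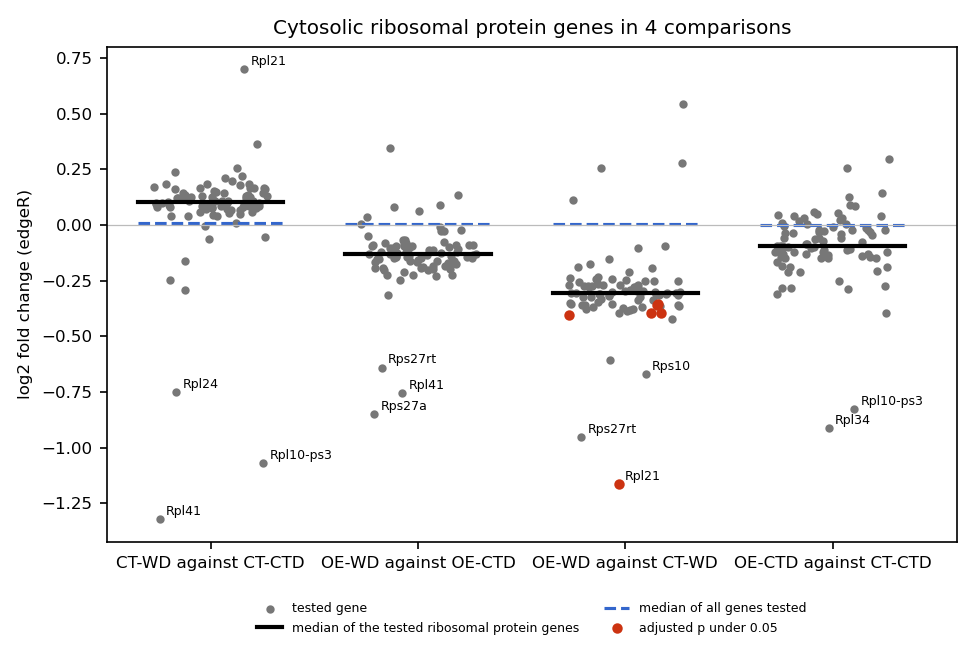
Log2 fold changes from edgeR (vertical axis) of the 84 tested ribosomal protein genes (points) in 4 comparisons, with the median of these genes (solid bars) and of all genes tested (dashed bars). The medians were 0.10, -0.13, -0.31 and -0.09 from left to right, and 6 genes had an adjusted p under 0.05, all in OE-WD against CT-WD.

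Rps15a (ENSMUSG00000008683, chr7:118104372-118116188, minus strand), a protein of the small subunit, had 112, 108 and 108 CPM (CT-CTD), 105, 125 and 125 (CT-WD), 107, 96.2, 100.3 and 99.6 (OE-CTD) and 93.5, 84.8, 87.7 and 92.9 (OE-WD). All 4 OE-WD libraries lay below the libraries of each other group, and CT-WD 1 was the lowest of CT-WD. Its log2 fold change against CT-WD was -0.40 (SE 0.08, lower in 4 of 4 libraries), with an adjusted p of 0.0322 in edgeR. Rpl27a (ENSMUSG00000046364, chr7:109519147-109522367, plus strand), of the large subunit, had 143, 139.7 and 131 CPM (CT-CTD), 132, 144 and 162 (CT-WD), 133, 121, 122 and 129.9 (OE-CTD) and 104, 112, 109.9 and 117 (OE-WD). Here too each OE-WD library was below each library of the other groups. Rpl27a fell by 0.40 on the log2 scale (SE 0.08, adjusted p 0.0345, edgeR).

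Rpl5 (ENSMUSG00000058558, chr5:107900502-107909005, plus strand), which brings the smallest ribosomal RNA of the large subunit into place and can bind Mdm2, had 209, 205 and 215 CPM (CT-CTD), 199, 231 and 232 (CT-WD), 185, 178, 186 and 189 (OE-CTD) and 183, 165, 170.5 and 172 (OE-WD). Both OE groups lay below both CT groups without overlap, and OE-WD and OE-CTD overlapped each other. The log2 fold change was -0.35 (SE 0.07, adjusted p 0.0399) on the western diet and -0.18 (SE 0.07, adjusted p 0.228) on the control diet, both by edgeR. Rpl9 (ENSMUSG00000047215, chr5:65388364-65391444, minus strand), near the base of the stalk, had 157, 161 and 158 CPM (CT-CTD), 148, 176 and 177 (CT-WD), 142, 142, 146 and 145 (OE-CTD) and 136, 131, 123 and 130.5 (OE-WD). OE-WD was lowest without overlap, and OE-CTD formed a tight group below CT-CTD. For Rpl9 edgeR gave -0.36 (SE 0.07, adjusted p 0.0399).

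Rpl23 (ENSMUSG00000071415, chr11:97777527-97782437, minus strand), at the face of the large subunit that meets the small one, had 106, 105 and 93.0 CPM (CT-CTD), 98.2, 115 and 113 (CT-WD), 103, 95.1, 88.0 and 99.2 (OE-CTD) and 86.3, 85.7, 77.3 and 79.5 (OE-WD). The OE-WD libraries were again below all others, if by little against OE-CTD 3. Its log2 fold change was -0.41 (SE 0.08, adjusted p 0.0399, edgeR). Rpl21 (ENSMUSG00000041453, chr5:146832890-146837032, plus strand) had 14.8, 15.5, 17.6 and 16 CPM (OE-CTD) and 14.2, 14.7, 14.1 and 13.2 (OE-WD), beside the CT values given above, and fell by 1.16 (SE 0.25, adjusted p 0.0456). The 8 OE libraries were close together, and the CT libraries were scattered from 13.1 to 46.0 CPM. Rpl21 held 14.4% of the CPM of its family, which has 55 copies, the most abundant being BC004004 at 67.2 CPM. For the family sum the coefficient of variation was 10.9%, against 47.5% for Rpl21, and the fold change was -0.35, close to those of the other genes.

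**Figure D4:**
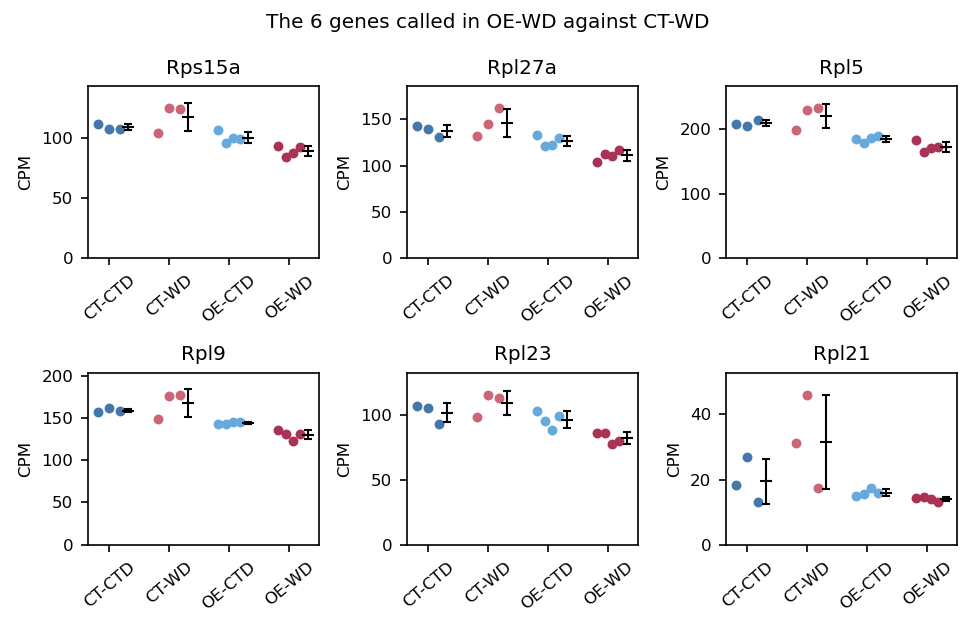
CPM (vertical axes, from 0) of the 6 genes with an adjusted p under 0.05 in OE-WD against CT-WD, 1 point for each library, with group mean and SD as black bars. OE-WD lies below CT-WD without overlap in each panel, and in Rpl21 the CT libraries range from 13.1 to 46.0.

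How many genes were called depended on what counts as a replicate, on the test, the filter and single libraries. With libraries of the same number summed, OE-WD is a single sample, assumed to vary like the other groups, and edgeR called 0 of 84 and 0 of all genes, with 17 and 481 at an unadjusted p under 0.05. The median was -0.31. DESeq2 called 32 of 88 genes (557 of all genes, 2%) and edgeR with no filter on low counts 13 (560 of all genes, 2.01%), including all 6 in both cases. Limma on FPKM called 0 (48 of all genes), as did edgeR on only the groups compared (4 of all genes) and with replicate numbers as blocks (1 of all genes). At an unadjusted p under 0.05 were 62, 64 and 67 of the ribosomal protein genes. Over all genes tested these counts were 2545 of 15458, 2070 of 14860 and 2063 of 15458. Past a fold change of 1.5 was 1 gene, Rpl21. Without CT-WD 1 there were 57 called (1499 of all genes), and without CT-WD 2 or 3 there were 0 and 1 (13 and 7 of all genes). Leaving out OE-WD 2, 3 or 4 left 0 in each case (4, 6 and 15 of all genes), leaving out OE-CTD 1, 2 or 3 left 1, 0 and 3 (65, 50 and 71 of all genes), leaving out CT-CTD 1, 2 or 3 left 3, 2 and 4 (116, 87 and 89), and leaving out OE-WD 1 or OE-CTD 4 gave 5 and 6 (131 and 109). The size of the shift moved less: the median was -0.39 without CT-WD 1, and it stayed between -0.39 and -0.27 in all alternatives, including other scalings between libraries. With copies added, 4 families were called (106 of all genes, 0.692%), Rps15a (-0.40, adjusted p 0.0323), Rpl36a (-0.40, 0.0482), Rps18 (-0.32, 0.0489) and Rpl12 (-0.38, 0.0498), of which Rpl12 was named after its value was seen. The other 5 called genes had adjusted p from 0.0523 (Rpl5) to 0.0941 (Rpl27a) as families. Over all alternatives the adjusted p of Rps15a ran from 0.000349 to 1, of Rpl27a from 0.000462 to 1, of Rpl5 from 0.000349 to 1, of Rpl9 from 0.000425 to 1, of Rpl23 from 0.00139 to 1 and of Rpl21 from 7.76e-05 to 1.

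The other genes at the low end were Rps27rt, at -0.95 (SE 0.55, adjusted p 0.399), and Rps10, at -0.67 (SE 0.48, adjusted p 0.515), both by edgeR. Rps27rt was at -0.05 without CT-WD 2, and Rps10 at -0.295 without CT-WD 1 and -0.25 with copies added. For Rpl41 the value was 0.26 (SE 0.30), -0.26 without OE-WD 1. Of the 3 stalk genes, Rplp0 had -0.27 (SE 0.11), Rplp1 -0.31 (SE 0.09) and Rplp2 -0.28 (SE 0.10), with edgeR adjusted p of 0.245, 0.112 and 0.188. The other abundant genes were alike: Rpl36 at -0.37, Rps15 at -0.28 and Rps3a1 at -0.27. On the X chromosome Rpl36a had -0.38, Rpl10 -0.33, Rpl39 -0.31 and Rps4x -0.23, with adjusted p from 0.061 to 0.277 in edgeR. The muscle paralog Rpl3l was at -0.19 (SE 0.10, adjusted p 0.322) and Rpl3 at -0.15 (SE 0.10, adjusted p 0.462). Of the ribosomal proteins outside the rule, Rack1 had -0.34 (SE 0.10) and Fau -0.26 (SE 0.10), and neither passed in edgeR.

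Ribosomal protein genes are short, and in OE-WD against CT-WD other short genes were shifted the same way. The median exonic length was 1730 bases for the tested ribosomal protein genes and 4010 for all genes tested. Among other genes of at least 10 CPM, the median log2 fold change in OE-WD against CT-WD was -0.21 for 246 genes of up to 1000 bases, -0.14 for 673 of up to 2000, -0.06 for 2077 of up to 4000, 0.03 for 2948 of up to 8000 and 0.03 for 1540 longer genes. The same order held in CT-WD against CT-CTD, with the opposite sign (0.09 for the shortest and -0.03 for the longest), in OE-WD against OE-CTD (-0.12 and 0.05) and in the interaction (-0.19 and 0.08). It was weak in OE-CTD against CT-CTD (0.01 and -0.05). The ribosomal protein genes of at least 10 CPM had -0.31 in OE-WD against CT-WD, beyond the shortest other genes. In CT-WD against CT-CTD (0.11) and in OE-WD against OE-CTD (-0.14) they were close to the shortest other genes. The median length of the tested ribosomal protein genes lies between 1000 and 2000 bases. Other genes of that length had smaller values in these 2 comparisons, 0.066 and -0.084. In the interaction the ribosomal protein genes had -0.25, beyond the shortest, and in OE-CTD against CT-CTD -0.07, where the shortest other genes had the opposite sign. The part of length in their shift was not tested.

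OE-CTD against CT-CTD asks what c-Myc induction does on the control diet. The shift was smaller: 65 of 84 genes were lower, with a median of -0.09 beside 0.00 over all genes tested, from -0.10 in the large and -0.09 in the small subunit to 0.04 in the stalk. EdgeR called 0 of 84 where it called 1.11% of all genes tested lower, 1.57% higher and 2.67% in either direction. DESeq2 and limma called 0 ribosomal protein genes as well, where they called 2.77% and 1.49% of all genes tested. At an unadjusted p under 0.05, 5 were lower (6.7%) and 0 higher (9.22%), against 15.9% in either direction. This count was 3 without OE-CTD 2 (1981 of all 15381 genes tested) or with libraries of the same number summed (1233 of 15458). It was 8 without CT-WD 1 (2726 of 15828). Without overlap between the groups, 15 were lower (6.75%) and 0 higher (8.73%). Rpl22l1 (ENSMUSG00000039221, chr3:28805436-28807424), a paralog of Rpl22, had 26.1, 27.1 and 25.7 CPM (CT-CTD), 23.1, 25.2 and 30.4 (CT-WD), 20.3, 20.3, 18.1 and 21.3 (OE-CTD) and 18.4, 24.6, 17.1 and 18.2 (OE-WD). OE-CTD was below CT-CTD without overlap. In OE-WD, library 2 reached into CT-WD and the other 3 were low. The log2 fold change was -0.40 (SE 0.12, adjusted p 0.107) on the control diet and -0.42 (SE 0.12, adjusted p 0.112) on the western diet, by edgeR. On the control diet it passed with only the groups compared in the fit (adjusted p 0.0332) and without OE-WD 2 (0.0476), and over all alternatives the adjusted p ran from 0.0332 to 0.509. Rpl22 itself was at -0.15 (SE 0.07) and -0.28 (SE 0.07).

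The most negative value was that of Rpl34, -0.91 (SE 0.30, adjusted p 0.131), from 3.44, 3.31 and 2.78 CPM (CT-CTD) and 2.57, 1.49, 1.52 and 1.12 (OE-CTD). OE-CTD lay below CT-CTD without overlap, but at counts far below those of Rpl34-ps1, and the family sum had -0.14. Rpl10-ps3 had -0.83 (SE 0.49) and was under 1 CPM throughout. The highest values were those of Rps27a, 0.29 (SE 0.21), Rpl30, 0.26 (SE 0.23), and Rpl3, 0.14 (SE 0.10), none of which passed in edgeR. Rps27a was at 0.11 without OE-CTD 2, and without CT-CTD 2 Rpl30 was at 0.08 and Rpl3 at 0.075. With copies added, Rpl30 was at -0.01. The comparisons of genotype and of diet share their libraries, so their values are given side by side and not counted as separate evidence.

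The diet by genotype interaction asks whether the diet difference itself differs between OE and CT. It was negative for 77 of 84 genes, with a median of -0.23 beside -0.01 over all genes tested, and for 3 of 3 stalk genes. EdgeR called 0 of 84 and 0% of all genes. DESeq2 called 0 of 88 (3 of 27899 genes tested) and limma 0 of 84 (0 of 15458). At an unadjusted p under 0.05, 22 were lower (3.34%) and 0 higher (2.57%), against 5.92% of all genes in either direction. That count, with blocks of replicate numbers that are not known to mark pairs, was 42 (1672 of all 15458 genes tested). It was 50 without CT-WD 1 (1697 of 15828), 5 without CT-WD 2 (968 of 15893), 6 without CT-WD 3 (720 of 15875) and 11 without CT-CTD 2 (736 of 15876). Leaving out CT-CTD 3 or OE-WD 2 gave 9 (825 of 15867 and 779 of 15362), and leaving out OE-CTD 1 gave 13 (733 of 15385). Summing libraries of the same number leaves a single sample in OE-WD, so that fit cannot show how far this count holds. The lowest adjusted p among these genes was 0.825, so a difference in the response to diet was not shown for any single gene. Without CT-WD 1 the median was -0.32. Rpl36a had -0.42 (SE 0.13), from 43.9, 37.4 and 36.4 CPM (CT-CTD), 40.7, 49.96 and 45.6 (CT-WD), 42.2, 39.7, 40.7 and 39.0 (OE-CTD) and 37.3, 35.1, 32.4 and 34.8 (OE-WD). CT-WD 2 and 3 were highest, and OE-WD 2, 3 and 4 lowest. Rpl41, with its sign opposite to most, had 0.57 (SE 0.42), 0.05 without OE-WD 1 and -0.06 as a family sum, and Rps27a had -0.60 (SE 0.30).

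Other genes of protein synthesis, and pseudogenes of ribosomal protein genes, were set beside these in OE-WD against CT-WD. In that comparison edgeR called 0.725% of all genes tested in either direction, and 16.9% were at an unadjusted p under 0.05. Of 19 translation factors whose mRNAs also begin with a pyrimidine tract, 16 were lower, with a median of -0.21, and 0 passed in edgeR (10 at an unadjusted p under 0.05). Tpt1, the most abundant of them at 735 FPKM, had -0.33 (SE 0.10). Of 77 mitochondrial ribosomal protein genes, 72 were lower, with a median of -0.20 and 0 called (28 at an unadjusted p under 0.05). Mrps21, at 78.9 FPKM, had -0.20 (SE 0.10). Of 29 genes of ribosome biogenesis and RNA polymerase I, 18 were lower, with a median of only -0.03, 0 called and 2 at an unadjusted p under 0.05, a smaller share than over all genes. Mybbp1a, a nucleolar protein and the most abundant at 20.2 FPKM, had 0.02 (SE 0.10). Of 54 tested pseudogenes of ribosomal protein genes, 47 were lower, with a median of -0.28, 0 called and 13 at an unadjusted p under 0.05. Reads counted at such copies may come from the genes themselves, so their values are not separate evidence. Rpl34-ps1 had -0.32 (SE 0.09).

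Of 13 regulators of ribosomal protein synthesis, 8 were lower, with a median of -0.03, and 1, Eif4ebp1, was called (0.725% of all genes tested), with 2 at an unadjusted p under 0.05 (16.9%). Eif4ebp1, a repressor of cap-dependent translation that mTOR inactivates, had 48.9, 48.0 and 51.6 CPM (CT-CTD), 42.7, 61.4 and 61.5 (CT-WD), 40.6, 32.5, 31.3 and 33.3 (OE-CTD) and 34.7, 32, 36.1 and 34.3 (OE-WD). All 8 OE libraries were below all 6 CT libraries. It fell by 0.69 on the log2 scale on the western diet (SE 0.12, adjusted p 0.0276) and by 0.52 on the control diet (SE 0.12, adjusted p 0.0318), by edgeR. Over all alternatives the adjusted p ran from 9.33e-05 to 1 and from 0.00383 to 0.332, with 15 and 14 of 23 alternatives under 0.05. It was 1 and 0.332 with libraries of the same number summed, and 0.238 and 0.129 with replicate numbers as blocks. Leaving out CT-WD 2 or 3 or OE-WD 2, 3 or 4 lost the call on the western diet (0.063 to 0.123), and leaving out any CT-CTD library or OE-CTD 2, 3 or 4 lost it on the control diet (0.0527 to 0.144). Its paralog Eif4ebp2, the most abundant regulator at 82.5 FPKM, had -0.03 (SE 0.13) and -0.23 (SE 0.13). The diet comparisons gave medians of 0.05 (CT) and -0.11 (OE) for mitochondrial ribosomal proteins and 0.08 and -0.05 for the translation factors, with the signs of the cytosolic ribosomal protein genes.

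Markers of other cell types also differed between the groups. Endothelial markers summed to 519, 518 and 555 CPM (CT-CTD), 617, 572 and 664 (CT-WD), 637, 654, 622 and 576 (OE-CTD) and 668, 660.1, 681 and 661 (OE-WD). CT-CTD was lowest without overlap, and CT-WD 3 reached into OE-WD. Of 12 endothelial markers, 11 were higher in OE-CTD against CT-CTD (median 0.30), where Tek rose by 0.52 (SE 0.11, adjusted p 0.0232), and 7 were higher in OE-WD against CT-WD (median 0.26), where Cdh5, whose promoter drives the transactivator, rose by 0.46 (SE 0.09, adjusted p 0.0322), both by edgeR. These were the only endothelial markers called, beside 2.67% and 0.725% of all genes tested, and 6 and 7 were at an unadjusted p under 0.05 (15.9% and 16.9%). On the control diet all 6 were higher, and on the western diet 6 were higher and 1 lower. With libraries of the same number summed the adjusted p was 0.295 for Tek and 1 for Cdh5, and with replicate numbers as blocks 0.0824 and 0.222. Over all alternatives it ran from 0.00128 to 0.295 for Tek and from 0.000289 to 1 for Cdh5, with 16 and 15 of 23 under 0.05. Without CT-CTD 2 or 3 or OE-CTD 1, 2 or 3 Tek was not called (0.0529 to 0.111), nor was Cdh5 without CT-WD 2 or 3 or OE-WD 2, 3 or 4 (0.0683 to 0.142). All 6 fibroblast markers were higher in OE in both, with medians of 1.13 and 0.62, and so were 9 and 7 of 9 macrophage markers (0.87 and 0.10). None of these passed in edgeR, where 6 and 3 fibroblast and 7 and 0 macrophage markers were at an unadjusted p under 0.05 (15.9% and 16.9% of all genes tested). In OE-WD against CT-WD the medians were -0.06 for 14 muscle, 0.65 for 6 adipocyte, 0.88 for 6 epidermal and -0.09 for 4 tested blood markers, with 0 called by edgeR (0.725%) and 2, 1, 0 and 0 at an unadjusted p under 0.05 (16.9%), and 1 lymphocyte marker was tested (0.43). In CT-WD against CT-CTD, 6 of 6 fibroblast (median 0.59), 9 of 9 macrophage (0.56), 11 of 12 endothelial (0.23) and 6 of 6 epidermal markers (1.28) were higher and 6 of 6 adipocyte markers lower (-0.98), with 0 called by edgeR (0%) and 1, 2, 4, 1 and 0 at an unadjusted p under 0.05 (7.28%). Of the 4 endothelial markers at that p, 3 were higher and 1 lower. Within CT-WD, only CT-WD 1 was high in the fibroblast and epidermal markers. Summed over the markers the levels were 1339, 411 and 403 CPM (CT-WD) and 553, 484 and 397 CPM (CT-CTD) for fibroblast, and 92.5, 8.89 and 10.7 CPM (CT-WD) and 38.5, 4.98 and 11.6 CPM (CT-CTD) for epidermal markers. In OE-WD against OE-CTD the medians were 0.10, 0.00, 0.06, 1.33 and -0.01 in the same order, also with 0 called (0.00647%) and with 0, 0, 1, 1 and 0 at an unadjusted p under 0.05 (4.2%). In the interaction, 9 of 9 macrophage (median -0.595), 6 of 6 fibroblast (-0.42), 9 of 12 endothelial (-0.11) and 11 of 14 muscle markers (-0.09) were lower. Adipocyte markers were higher in 6 of 6 (0.86) and epidermal markers in 3 of 6 (0.10). EdgeR called 0 of these (0%), with 1, 1, 1, 2, 0 and 0 at an unadjusted p under 0.05 (5.92%). The part of these markers in the shifts of the ribosomal protein genes was not tested.

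The transgene is human, and the mouse Myc gene had 4.59, 6.11 and 4.45 CPM (CT-CTD), 8.71, 4.93 and 13.3 (CT-WD), 6.63, 5.87, 6.84 and 3.06 (OE-CTD) and 9.03, 5.61, 5.74 and 5.22 (OE-WD). The groups overlapped, and CT-WD 3 was highest. No comparison of Myc passed in edgeR: the log2 fold changes were 0.84 for diet in CT, 0.18 for diet in OE, -0.49 for OE on the western diet and 0.16 on the control diet, with adjusted p of 0.604, 1, 0.442 and 0.863. How far reads of the human transgene were counted at the mouse gene is not known.

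Because most of these genes were shifted together, the sequence at their annotated starts was looked at, from RefSeq promoters on GRCm38.p6. Promoters were found for 64 of the 92 genes, 61 of them tested. A pyrimidine tract, read on the strand of the gene as a C followed by at least 4 bases that are each C or T and beginning within 5 bases of the annotated start, was present in 29 of 64 (45.3%) beside 18.5% of all 27025 promoters. The letters CTTTCC, which can lie inside such a tract, occurred on that strand in the 30 bases around the start in 10 of 64 (15.6%) beside 1.39%. CACGTG, a motif that Myc and other factors can bind and that reads the same on both strands, was in the 300 bases from 250 before to 50 after the start in 5 of 64 (7.81%) beside 7.24%. A match is a description, not a site or a cause, and an annotated start may differ from the start used in muscle.

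The 30 bases around the start, 15 to each side, are shown for the 5 called genes with an entry. Capitals begin at the C nearest the start that opens a tract and run for at most 15 bases, so pyrimidines beside them can be in small letters. In Rpl27a they lie within a run of 19 pyrimidines in the window. The genes are Rps15a at chr7:118116133-118116162 (minus strand), Rpl27a at chr7:109519180-109519209 (plus), Rpl5 at chr5:107900513-107900542 (plus), Rpl9 at chr5:65391417-65391446 (minus) and Rpl23 at chr11:97782425-97782454 (minus), of which the first pair holds a tract and the last 3 do not. The Rpl23 window also holds CACGTG.
Rps15a: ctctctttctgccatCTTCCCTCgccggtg
Rpl27a: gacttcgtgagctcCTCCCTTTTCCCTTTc
Rpl5: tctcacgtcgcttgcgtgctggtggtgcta
Rpl9: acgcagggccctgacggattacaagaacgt
Rpl23: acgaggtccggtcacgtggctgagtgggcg

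Rps27 at chr3:90213634-90213663 (minus strand) and Rps27rt at chr9:114982725-114982754 (minus) are shown because their reads could hardly be told apart. Their windows share the letters CTTTCC and the bases after it.
Rps27: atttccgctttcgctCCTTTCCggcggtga
Rps27rt: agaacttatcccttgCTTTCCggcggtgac

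Rpl41 at chr10:128549154-128549183 (minus strand) and Rpl3l at chr17:24727811-24727840 (plus), the gene with the lowest value of the diet comparison in CT and the muscle paralog, hold no tract at the annotated start.
Rpl41: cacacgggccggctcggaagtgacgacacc
Rpl3l: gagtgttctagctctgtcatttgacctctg

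No entry was present for Rps27a, Rpl21 or Rpl3.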

How the data were processed

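Poly(A) RNA from skeletal muscle was sequenced in 14 libraries. The paper says that library preparation and sequencing were outsourced. Per the submitters' processing notes, reads were aligned to mm10 with HISAT2 2.0.5 and counted per gene with featureCounts 1.5.0-p3. The deposited tables hold counts and FPKM per gene for the same 14 libraries, and the strand setting and the handling of reads that map to several places are not given. Libraries held 21833839 to 28519159 counts. The library total implied by the deposited FPKM was 79.93% to 97.97% of the summed counts.

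The cytosolic ribosomal protein genes were taken by name, and 88 of the 92 have the same coordinates in GENCODE M21. Their members and the gene lists beside them were chosen with earlier results of these data known. Named in the text are Rpl41 and Rps27a, each gene with an adjusted p under 0.05, the 3 largest values in each direction in each of 4 pairwise comparisons, the 5 highest and 3 lowest genes by mean FPKM, paralog pairs, genes on the X chromosome, Fau, Rack1 and Myc, and in each list the most abundant gene and each gene called. A further gene of this rule is not reported here.

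The tests ran in R 4.3.3 on counts, using edgeR 4.0.16: TMM normalization, the filterByExpr filter by group, which removed 0.0467% to 0.0694% of counts, a mean for each of 4 groups, and edgeR's quasi-likelihood test with Benjamini-Hochberg adjustment over 15458 genes in each comparison. Each library was taken as a replicate. A gene was called at an adjusted p under 0.05. The biological coefficient of variation was 17%, and within groups the chi-square statistic over its degrees of freedom, near 1 for counting noise alone, was 7.502 to 48.13. The test was tried on simulated data. Standard errors are the log2 fold change over the root of the test statistic.

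Alternatives were DESeq2 size factors in edgeR, no filter on low counts, the Wald test of DESeq2 1.42.0, limma 3.58.1 with trend on log2 of FPKM plus 1, only the libraries of the groups compared, the replicate number as a block, a fold change over 1.5 beside the adjusted p, and each library left out in turn. Chosen after seeing the data were reads of copies added to their gene, for annotated genes with at least 95% identity over 80% of the coding sequence, mitochondrial genes left out, and libraries of a group whose sample names hold the same number summed, which leaves 3, 3, 2 and 1 samples in CT-CTD, CT-WD, OE-CTD and OE-WD.

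Whether equal replicate numbers mark pairs is not stated. These are the replicate numbers of the labels, not the numbers in the sample names. Correlations of residuals between libraries of equal replicate number were 0.385, 0.123 and 0.203 between CT-CTD and CT-WD, all over 0.1. Libraries of unequal replicate number were not compared, so this check cannot show that the numbers mark pairs. In comparisons of genotype a block joins CT and OE libraries on the same diet. The main test uses no blocks, and calls that the blocked fit changes are given beside the result.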

Additional observations from a re-analysis of the deposited data

Results flagged for a closer look

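In groups of 4 libraries, 2 of 68 groups tested held a library far from the other 3. Chance alone gives about 1 in 20. Rpl13a had 3.113 CPM in OE-WD 1, where the other OE-WD libraries had 4.379 to 4.466. Rps4x had 238.7 CPM in OE-CTD 4, where the other OE-CTD libraries had 182.2 to 191.4. OE-CTD 4 is also the library with the highest share of mitochondrial counts, and whether this bears on Rps4x was not tested.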

How the results depend on the processing

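The median of the ribosomal protein genes kept its sign in each comparison under each alternative run. It moved beyond the spread between libraries once, in the interaction, where single libraries left out gave -0.32 (without CT-WD 1) to -0.18 (without CT-WD 3). Of the results for single named genes under the alternatives, 662 kept direction and side of the threshold, 84 lost the call, 8 gained it and 12 changed sign. The number of ribosomal protein genes called was within 1.5 times its reported value in 93 cases and beyond in 26.

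With no filter on low counts, 1 ribosomal protein gene was called in CT-WD against CT-CTD, 1 in OE-WD against OE-CTD and 13 in OE-WD against CT-WD. Of all 27899 genes in that fit, 93, 5 and 560 were called. The replicate block gave 1 in CT-WD against CT-CTD (13 of all genes) and 0 in OE-WD against CT-WD (1). DESeq2 gave 32 in OE-WD against CT-WD (557 of all genes), limma 0 (48), and a fold change over 1.5 left 1 (87). Fits of only the groups compared gave 0 in OE-WD against CT-WD (4 of all genes) and 1 in OE-CTD against CT-CTD (596). With libraries of the same number summed, chosen after seeing the data, 0 were called in OE-WD against CT-WD, where OE-WD is then a single sample, and 1, Rpl41, in CT-WD against CT-CTD. Leaving out single libraries gave 0 to 57 in OE-WD against CT-WD, with 57 without CT-WD 1 (1499 of all genes) and 0 without CT-WD 2 (13). The range was 0 to 1 in CT-WD against CT-CTD (1 without OE-WD 1, with 3 of all genes). It was the same in OE-WD against OE-CTD (1 without OE-WD 1, with 2 of all genes) and in OE-CTD against CT-CTD (1 without OE-WD 2, with 369 of all genes). The cause was not tested, except that summing leaves fewer samples.

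With copies added, chosen after seeing the data, Rps18 in OE-WD against CT-WD changed sign and was called (-0.32). Others that changed sign include Rpl24 in CT-WD against CT-CTD (0.044) and OE-WD against CT-WD (-0.24), Rps27 (-0.13) and Rpl34 (-0.13) in OE-WD against OE-CTD, Rpl41 in OE-WD against CT-WD (-0.19) and in the interaction (-0.063), and Rpl30 in OE-CTD against CT-CTD (-0.01). Rps27 in OE-WD against OE-CTD was at -0.058 with libraries of the same number summed. Single libraries left out gave -0.54 (without CT-WD 2) to 0.68 for Rps27rt in CT-WD against CT-CTD, -0.17 (without OE-CTD 3; -0.01 without OE-WD 1) to 0.35 for Rps27 in OE-WD against OE-CTD, and -0.26 (without OE-WD 1) to 0.44 for Rpl41 in OE-WD against CT-WD. Here too the cause was not tested.

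Over all genes tested, alternatives called 0 to 93 in CT-WD against CT-CTD, 0 to 5 in OE-WD against OE-CTD, 0 to 1499 in OE-WD against CT-WD, 1 to 774 in OE-CTD against CT-CTD and 0 to 29 in the interaction. Residuals of libraries with equal replicate numbers in the labels correlated at 0.071, 0.138, 0.142 and 0.338 in OE, not all over 0.1. Pairing was not shown for these either. Between CT-WD and OE-WD the correlations were -0.23, -0.158 and -0.065, and between CT-CTD and OE-CTD they were 0.046, -0.113 and -0.122. Counts of 10 tested ribosomal protein genes were under 10 CPM, which limits the precision of their fold changes.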
